A study of Mus musculus with 24 samples.

Results

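Transcripts of 10 mouse genes of autophagy and mitochondrial clearance were followed in primitive erythroid (EryP) cells, the red cell lineage that the yolk sac makes before any other. Every probe that carries one of these symbols was taken, and the genes themselves were chosen with earlier results of these data known. They are the receptors Sqstm1 and Bnip3l, the initiation genes Ulk1 and Becn1, and the conjugation genes Map1lc3a, Map1lc3b, Gabarapl1, Gabarapl2, Atg3 and Atg4b. Together they have 15 of the 45719 probes on the array, which carry 17583 gene symbols in all.

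Autophagy encloses cytoplasm or organelles in a double membrane that then fuses with the lysosome. The kinase Ulk1 and the lipid kinase complex that contains Beclin 1 start the membrane. The protease Atg4b trims proteins of the LC3 and GABARAP families, the enzyme Atg3 joins them to a membrane lipid, and cargo receptors such as p62 (Sqstm1) and Nix (Bnip3l) bind them. Red cells of mammals lose their mitochondria as they mature, and in mouse reticulocytes Nix is known to be needed for that loss.

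RNA came from cells sorted for green fluorescence out of embryos that carry a transgene, human epsilon globin::H2B-EGFP, in which a human globin promoter marks the cells, and every group carries it. The labels give no other genotype or treatment, and the groups are stages of development. With 2 rounds of RNA amplification the groups were E8.5 (n = 3) and E7.5 (n = 3). With 1 round there were 6 arrays of E8.5 and 3 arrays of each later day, up to E12.5. Replicates of E7.5 to E10.5 pooled several embryos, and those of E11.5 and E12.5 were single embryos. Up to E9.5 the cells were sorted from digested whole embryos, and from E10.5 on from blood, so in comparisons of E10.5 to E12.5 with earlier stages, the later stage and its source cannot be told apart, and at E11.5 and E12.5 neither can the use of single embryos. Arrays with 1 and 2 rounds were kept apart throughout.

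The 24 arrays lay on 4 slides. All arrays with 2 rounds were on slide 1. E9.5 shared slide 2 with the first 3 arrays of E8.5, E12.5 shared slide 3 with the other E8.5 arrays, and E10.5 shared slide 4 with E11.5. Of all probes, 8542 to 10570 were detected (detection p under 0.05) on the E12.5 arrays and 12355 to 15387 on the other arrays with 1 round. All 10 of the erythroid markers with a probe were detected on every array of E8.5 to E12.5. Of 9 macrophage markers, which could come from cells that engulf red cells, 6 to 8 were detected on no array of a stage. The mean log2 level of 8 visceral endoderm markers was 4.50 to 4.56 at E12.5, where 7 of them were detected on no array, against 4.89 to 6.23 at E8.5. Of 6 tested endothelial markers, Kdr (2.61) and Emcn (1.96) were higher at E12.5 than at E8.5 and Pecam1 (-1.48), Cldn5 and Esam lower, as log2 differences, and 6 of the 8 with a probe were detected on no E12.5 array. The mesenchyme marker Prrx1 (2.70) was higher and the macrophage marker Laptm5 (-1.82) lower. The other tested mesenchyme marker, Twist1, was at -0.28 (limma adjusted p = 0.0844). Of the 6 mesenchyme markers with a probe, 4 were detected on no E12.5 array and 4 on no E8.5 array with 1 round. Their part in the changes below was not tested. Levels are relative to all transcripts on an array, and in such bulk samples fewer cells of a type and less RNA per cell cannot be told apart.

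Of the 15 probes, 11 passed the filter on dim probes on the arrays with 1 round, which asked for detection on at least 3 arrays. A second Becn1 probe, another pair of Gabarapl2 probes and a second Atg3 probe were detected on 0 of the 18 arrays. Each gene is described by its brightest tested probe, and Map1lc3a also by a second one. Levels are normalized log2 signals, and a difference is the later minus the earlier stage with its standard error (SE). All adjusted p are from limma, with Benjamini-Hochberg adjustment over all probes tested, and a difference was called at an adjusted p under 0.05.

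At E12.5, transcripts of both receptors, of Ulk1 and of Map1lc3b and Gabarapl1 were higher than at E8.5, while Becn1 and Map1lc3a did not pass the test. Atg3 and Atg4b were called lower over all arrays, but neither was with slide as a fixed block (adjusted p = 0.778 and 0.067), and the E8.5 arrays of Atg3 split by slide. Gabarapl2 was called higher too, but its probe was detected on the 3 arrays of E12.5 alone and passed the filter only through them, so that it had to differ. In all, 8 of 11 probes were called, 6 higher and 2 lower, where 67.3% of all tested probes were called, 32.2% higher and 35.1% lower. Without Gabarapl2, 5 of 10 probes were higher and 2 lower. With slide as a fixed block, and Gabarapl2 counted again, 6 of 11 were higher and 0 lower. In that fit 4909 of all 16020 tested probes were higher and 5308 lower. In 6 of the 9 genes other than Gabarapl2 the arrays of both stages did not overlap, as in 55.6% of all probes. By role, 2 of 2 receptors, 1 of 2 initiation genes and, without Gabarapl2, 2 of 5 conjugation genes were higher. The median difference was 3.08 for the receptors, 1.32 for initiation and 0.04 for those 5 conjugation genes (0.46 with Gabarapl2). Over the 9 genes it was 1.66, and over 9412 named genes -0.06. The difference between the roles was not tested. Under quantile normalization most of the increase came in the last day, but E11.5 and E12.5 lie on different slides. Under cyclic loess normalization Ulk1 stood at -0.10 against E11.5 and at 0.87 against E8.5. Under median scaling Ulk1 and Map1lc3b lay below the median of all tested probes against E11.5. Under quantile normalization the 2 receptors, Ulk1, Map1lc3b, Gabarapl1 and, with the same reserve, Gabarapl2 were called higher at E12.5 than at E11.5. The second Map1lc3a probe was called lower. These were 7 of 11 probes, where 47% of all probes were called, 23.6% higher and 23.5% lower. There 7 of the 9 genes other than Gabarapl2 did not overlap between the stages, as in 53% of all probes. A test over all 5 stages called 8 of 11 probes, where 72.9% of all were called, and left out Becn1 and both Map1lc3a probes.

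**Figure D1:**
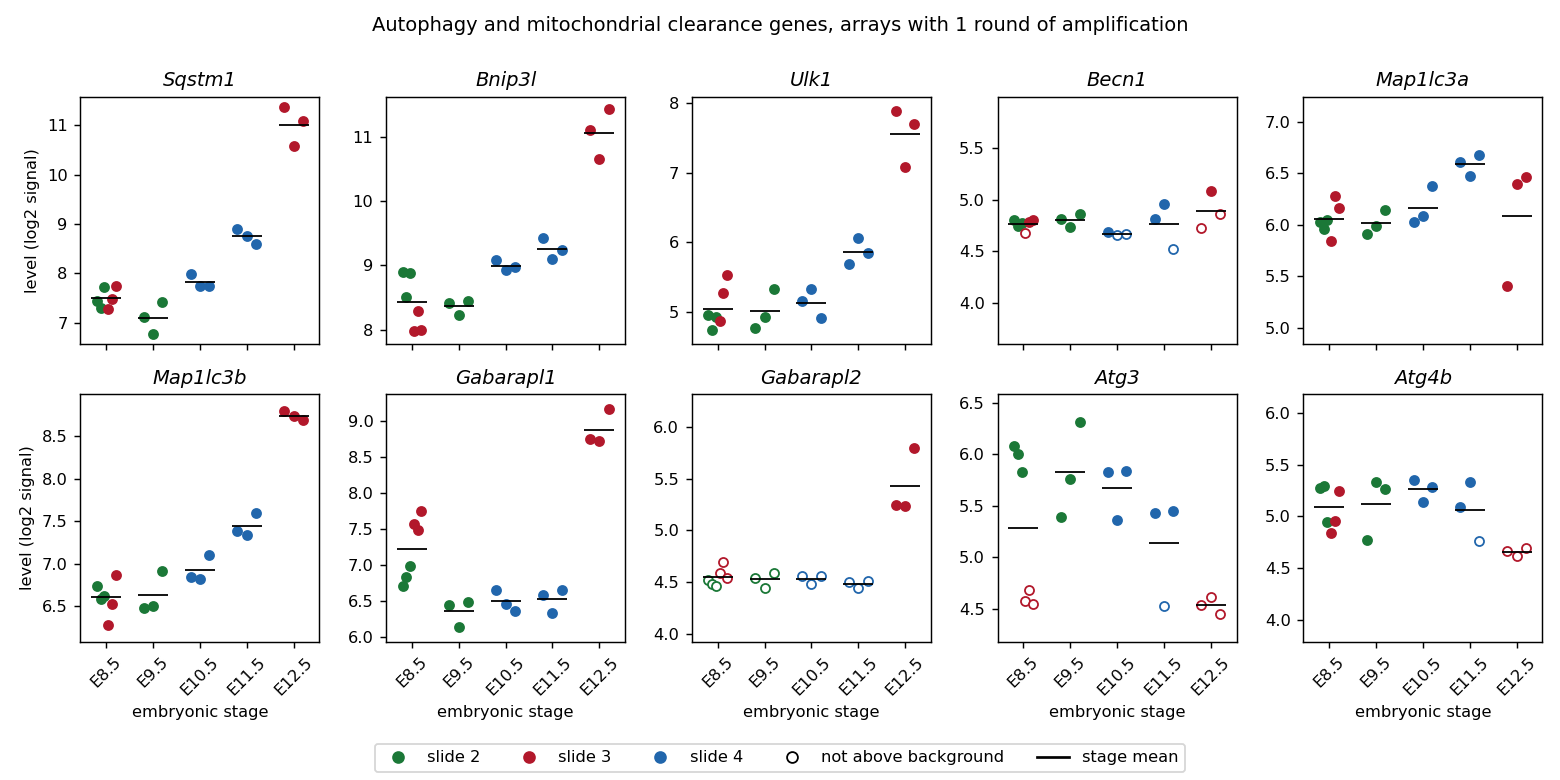
Normalized log2 signal (y axis) of each gene's brightest tested probe by embryonic stage (x axis) on the 18 arrays with 1 round of amplification. Points are arrays, coloured by slide, open where the probe was not above background, and lines are stage means. The E12.5 points of Sqstm1, Bnip3l, Ulk1, Map1lc3b, Gabarapl1 and Gabarapl2 lie above all points of the other stages.

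Sqstm1 encodes p62, which binds ubiquitin-tagged cargo and LC3 proteins (chr11:50200152-50210820, GRCm38.p6, as for all coordinates). Its log2 level at E8.5 had a lowest, median and highest value of 7.29, 7.46 and 7.75. It was 7.11, 6.77 and 7.42 at E9.5, 7.98, 7.75 and 7.74 at E10.5, 8.90, 8.76 and 8.58 at E11.5 and 11.38, 10.57 and 11.08 at E12.5. All arrays of E11.5 lay above all earlier ones and all of E12.5 above those. The level rose by 3.52 ± 0.19 (SE) at E12.5 against E8.5, which is 11.4-fold (limma adjusted p = 4.97e-13). Within slide 3 alone the difference was 3.51. The last day gave 2.26 ± 0.22 (adjusted p = 6.02e-08) and the day before 0.92 ± 0.22 (adjusted p = 0.00957), which missed the threshold without E11.5 replicate 1 (adjusted p = 0.0507). In the order E9.5, E8.5, E10.5, the lowest neighbours did not differ beyond their spread (adjusted p = 0.175 and 0.247).

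Bnip3l encodes Nix, a receptor in the outer membrane of mitochondria (chr14:66985238-67008877). At E8.5 its lowest, median and highest log2 level was 7.98, 8.39 and 8.89. The values were 8.42, 8.24 and 8.45 at E9.5, 9.08, 8.93 and 8.97 at E10.5, 9.42, 9.10 and 9.25 at E11.5 and 11.11, 10.66 and 11.43 at E12.5. The 3 arrays of E12.5 stood above all others. At E8.5 the arrays of slide 3, at 7.98 to 8.29, all lay below those of slide 2, with a difference in means of -0.67 between the slides. Bnip3l rose 6.23-fold at E12.5 against E8.5 (2.64 ± 0.21, adjusted p = 3.47e-10), and by 2.98 within slide 3. Against E11.5 it rose by 1.81 ± 0.25 (adjusted p = 3.49e-06). The other neighbours in its order, E9.5, E8.5, E10.5 and E11.5, were not called apart (adjusted p = 0.903, 0.0541 and 0.614).

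Ulk1, the kinase that starts autophagy (chr5:110784489-110810120), stayed low for most of the series. Its lowest, median and highest log2 level at E8.5 was 4.74, 4.94 and 5.53. It was 4.78, 4.93 and 5.32 at E9.5, 5.15, 5.33 and 4.91 at E10.5, 5.68, 6.07 and 5.85 at E11.5 and 7.89, 7.08 and 7.70 at E12.5. The first 3 stages overlap, while E11.5 lies above them and E12.5 above E11.5. Ulk1 rose by 0.73 ± 0.23 at E11.5 against E10.5 (adjusted p = 0.0459), a call lost in each of 6 fits without 1 array (adjusted p = 0.0695 to 0.173), and by 1.69 ± 0.23 at E12.5 against E11.5 (adjusted p = 3.65e-06). Against E8.5 the difference at E12.5 was 2.51 ± 0.20, or 5.70-fold (adjusted p = 2.90e-10), and 2.34 within slide 3. Under cyclic loess normalization the difference between E12.5 and E11.5 was -0.10 (adjusted p = 0.822), so this step depends on the normalization. The one against E8.5 was then 0.87 and still called (adjusted p = 0.00241).

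Becn1, which encodes Beclin 1 (chr11:101288258-101302286), lay near background, at 4.52 to 5.08 on all 18 arrays with detection on 12. Its difference between E12.5 and E8.5 was 0.12 ± 0.10 (adjusted p = 0.272). A fall of Becn1 would be limited by the background.

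Of the conjugation genes, Map1lc3b, Gabarapl1 and Gabarapl2 were called higher at E12.5 and the others were not. The promoter windows of 3 of them are shown because they differ in their course, together with that of Sqstm1, whose difference between E12.5 and E8.5 is the highest of the 10 genes. RefSeq windows of 300 bases (250 before to 50 after the gene start, build GRCm38.p6) were found for Sqstm1, Ulk1, Map1lc3b, Gabarapl1, Gabarapl2, Atg3 and Atg4b. Windows are given 5′ to 3′ on the gene's strand, with motif matches in capitals.
Sqstm1, chr11:50210771-50211070, minus strand: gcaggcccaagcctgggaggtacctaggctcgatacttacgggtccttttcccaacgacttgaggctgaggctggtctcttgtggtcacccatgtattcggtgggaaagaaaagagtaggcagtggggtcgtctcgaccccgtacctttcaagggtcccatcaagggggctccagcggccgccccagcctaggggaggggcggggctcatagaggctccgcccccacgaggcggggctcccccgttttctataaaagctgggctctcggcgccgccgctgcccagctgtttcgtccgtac
Map1lc3b, chr8:121590188-121590487, plus strand: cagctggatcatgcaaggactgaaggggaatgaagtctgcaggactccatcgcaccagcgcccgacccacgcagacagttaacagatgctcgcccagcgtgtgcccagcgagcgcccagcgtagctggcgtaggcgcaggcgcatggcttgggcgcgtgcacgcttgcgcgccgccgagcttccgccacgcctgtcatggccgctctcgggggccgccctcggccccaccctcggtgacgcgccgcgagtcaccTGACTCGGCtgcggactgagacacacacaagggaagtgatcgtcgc
Gabarapl1, chr6:129532942-129533241, plus strand: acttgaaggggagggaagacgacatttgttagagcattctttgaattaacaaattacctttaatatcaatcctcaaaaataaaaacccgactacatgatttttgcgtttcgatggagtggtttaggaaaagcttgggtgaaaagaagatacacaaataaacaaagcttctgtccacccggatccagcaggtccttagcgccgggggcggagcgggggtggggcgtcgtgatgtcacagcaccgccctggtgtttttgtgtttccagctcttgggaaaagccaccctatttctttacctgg
Atg3, chr16:45158579-45158878, plus strand: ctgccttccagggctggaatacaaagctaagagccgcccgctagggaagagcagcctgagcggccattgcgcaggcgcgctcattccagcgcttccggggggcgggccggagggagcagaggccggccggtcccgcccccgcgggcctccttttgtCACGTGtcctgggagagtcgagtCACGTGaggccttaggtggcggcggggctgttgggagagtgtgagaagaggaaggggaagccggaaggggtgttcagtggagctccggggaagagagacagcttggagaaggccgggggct

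Searched on both strands were AGATAA (bound by GATA factors), TGTTTAC (forkhead factors), CACGTG (the Tfeb and Tfe3 family among others), TGACNNNGC (the NF-E2 family) and CACACCC (Klf1). None of these motifs contains another. Of 32851 windows of this length, 11.18%, 3.65%, 7.15%, 12.39% and 7.954% hold them in this order. In the 7 windows, TGACNNNGC matched 1 time, in Map1lc3b with its first base at position 5 after the start, and CACGTG 2 times, in Atg3 with first bases at positions -94 and -71. The other letters searched were not in these windows.

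Map1lc3b encodes an LC3 protein that coats the autophagosome (chr8:121590438-121598760). Its lowest, median and highest log2 level at E8.5 was 6.28, 6.61 and 6.87. It was 6.63 ± 0.24 at E9.5 (mean and SD, n = 3), 6.85, 6.82 and 7.11 at E10.5, 7.39, 7.34 and 7.60 at E11.5 and 8.79, 8.73 and 8.70 at E12.5. The E12.5 arrays differ by 0.05 (SD) and lie above all others. The rise at E12.5 was 2.14 ± 0.16 against E8.5, or 4.39-fold (adjusted p = 1.17e-10), 2.18 within slide 3, and 1.30 ± 0.19 against E11.5 (adjusted p = 6.44e-06). The step between E11.5 and E10.5, 0.52, missed the threshold (adjusted p = 0.0827), and so did the lower neighbours.

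Gabarapl1, of the GABARAP family (chr6:129533192-129542331), had its lowest stage means at E9.5, E10.5 and E11.5. At E8.5 its log2 level was 7.56, 7.48 and 7.74 on slide 3 and 6.71, 6.83 and 6.98 on slide 2, with no overlap between the slides. It was 6.44, 6.13 and 6.48 at E9.5, 6.65, 6.45 and 6.36 at E10.5, 6.58, 6.33 and 6.64 at E11.5 and 8.75, 8.71 and 9.16 at E12.5. The 3 middle stages overlap, and E12.5 stands above every other array. Gabarapl1 rose 5.12-fold at E12.5 against E11.5 (2.36 ± 0.24, adjusted p = 1.23e-07). Against E8.5 the rise was 1.66 ± 0.21, or 3.16-fold (adjusted p = 3.69e-07), and 1.28 within slide 3.

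Gabarapl2, of the same family (chr8:111940703-111952915), was detected on no array of E8.5 to E11.5, where its log2 level was 4.44 to 4.69. At E12.5 it was 5.25, 5.24 and 5.80 and detected on all 3. These 3 arrays alone brought the probe through the filter, so the p-values that follow support nothing by themselves. It was at least 1.92-fold higher at E12.5 than at E11.5 (adjusted p = 7.12e-07) and at least 1.76-fold higher than at E8.5 (adjusted p = 4.82e-08). Such a bound sets the bright mean against each dim array's lowest detected signal, or against the probe's own value where that is higher. At E11.5 its own mean, 4.49, lay above those lowest signals (4.41 to 4.45), so that bound is close to the plain fold. Under cyclic loess these differences were 0.12 and 0.07 and not called (adjusted p = 0.244 and 0.546). The other Gabarapl2 probes showed no signal to set beside it.

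Atg3, the enzyme of the last conjugation step (chr16:45158829-45188538), separated by slide at E8.5. Its log2 level was 4.57, 4.68 and 4.55 on slide 3, not detected, and 5.83 to 6.08 on slide 2, detected on all 3. It was 5.39, 5.76 and 6.31 at E9.5, 5.83, 5.36 and 5.83 at E10.5, 5.43, 4.53 and 5.45 at E11.5 and 4.54, 4.62 and 4.45 at E12.5, where no array detected it. The E12.5 values, on slide 3, overlap those of the E8.5 arrays on that slide. The pooled difference, -0.75 ± 0.32 (adjusted p = 0.0426, at least 1.19-fold lower), was called, but it was -0.07 with slide as a fixed block (adjusted p = 0.778), and within slide 3 the probe failed the filter. The call was lost in 6 of 9 fits that left out 1 array (adjusted p = 0.0763 to 0.111).

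Atg4b, the protease that trims LC3 and GABARAP proteins (chr1:93754905-93789606), was detected on all 6 arrays of E8.5 and on none of E12.5. Its log2 level was 4.66, 4.61 and 4.70 at E12.5, against a lowest, median and highest value of 4.84, 5.10 and 5.30 at E8.5, and the groups do not overlap. The fall at E12.5 against E8.5 was 0.44 ± 0.15 on the log2 scale (adjusted p = 0.0143), at least 1.04-fold. Within slide 3 the difference was -0.36 (adjusted p = 0.0287), with slide as a fixed block adjusted p was 0.067, and under cyclic loess the difference was -0.016 (adjusted p = 0.972). The lowest detected log2 level on the E12.5 arrays was 4.90 to 5.17, so a level like that of E8.5 lies partly below detection there.

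Map1lc3a, the other LC3 gene of the set (chr2:155276364-155278073), had 2 tested probes. The brighter one was at 5.40, 6.40 and 6.46 at E12.5, with replicate 1 far below the others, against 6.60, 6.48 and 6.68 at E11.5 and 5.84 to 6.28 at E8.5. It was not called against either stage (-0.50, adjusted p = 0.0724, and 0.04, adjusted p = 0.879). The dimmer probe was at 5.40, 4.66 and 4.65 at E12.5, against 5.34, 5.31 and 5.76 at E11.5. The dimmer probe was called lower than at E11.5 (-0.57 ± 0.21, adjusted p = 0.0289), although the groups overlap. In replicate 1 of E12.5 the dimmer probe was the highest and the brighter one the lowest of the stage, so the probes disagree there. The call was lost in 3 of 6 fits without 1 array, and with slide as a random block (adjusted p = 0.231).

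**Figure D2:**
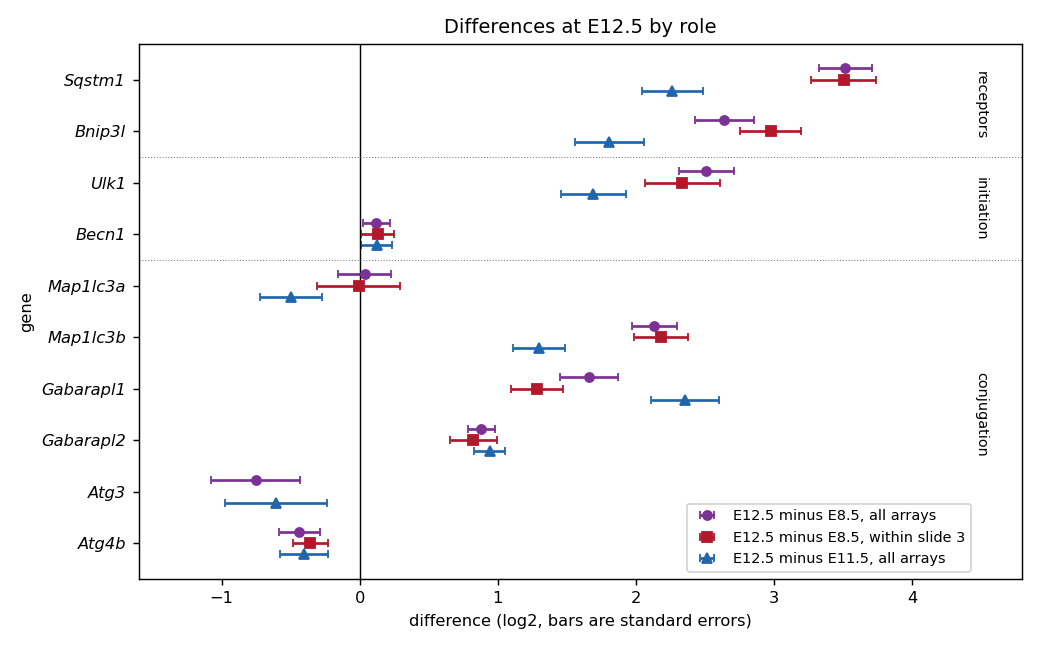
Differences in log2 level (x axis, bars are standard errors) of the 10 genes (y axis, grouped by role): E12.5 minus E8.5 over all arrays, the same within slide 3, and E12.5 minus E11.5. The receptors, Ulk1, Map1lc3b, Gabarapl1 and Gabarapl2 lie right of 0 in all 3, and Atg3 has no value within slide 3.

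The step between E12.5 and E11.5 crosses slides, so slide and stage cannot be told apart in a fixed block. With slide as a random block, which does not remove a slide effect here, the 6 increases stayed called. They were 2.26 for Sqstm1, 2.00 for Bnip3l, 1.60 for Ulk1, 1.32 for Map1lc3b, 2.15 for Gabarapl1 and 0.91 for Gabarapl2. Of all 17408 tested probes, 3016 were then called higher and 2566 lower. The call of Gabarapl2 adds nothing here, as its probe passed the filter only through the E12.5 arrays and had to differ. Within slide 3, 7 of 10 tested probes differed between E12.5 and E8.5, 6 higher and 1 lower, where 74.6% of all probes did, 35.1% higher and 39.5% lower. Gabarapl2 is among the 6 higher, with the same reserve.

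These values assume that the arrays share 1 distribution of signals. Median scaling, an alternative, instead gave the arrays the same median over the probes detected on all 18 of them. It moved the median of all tested probes by 2.20 between E12.5 and E11.5 and by 1.96 between E12.5 and E8.5. Of the member probes, 11 of 11 then lay above 0. Of all 17408 tested probes, 14293 were then called higher against E11.5 and 13889 against E8.5. Relative to the median of all tested probes, between E12.5 and E11.5 Sqstm1 stood at 0.59, Bnip3l and Gabarapl1 at 0.18 and Gabarapl2 at 0.80, but Ulk1 at -0.43 and Map1lc3b at -0.99. Between E12.5 and E8.5, Sqstm1 stood at 1.87, Bnip3l at 1.01, Ulk1 at 0.56 and Gabarapl2 at 0.53, but Map1lc3b at -0.06 and Gabarapl1 at -0.50. Against E11.5, Sqstm1, Bnip3l, Gabarapl1 and, with its reserve, Gabarapl2 were thus above the median probe under quantile normalization, cyclic loess and median scaling. For Bnip3l and Gabarapl1 the margin under median scaling was only 0.18. The direction of Ulk1 and Map1lc3b against E11.5 flipped under at least 1 of these settings. Against E8.5, Sqstm1, Bnip3l, Ulk1 and Gabarapl2 were above the median probe under all of them, while Map1lc3b and Gabarapl1 flipped under median scaling.

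**Figure D3:**
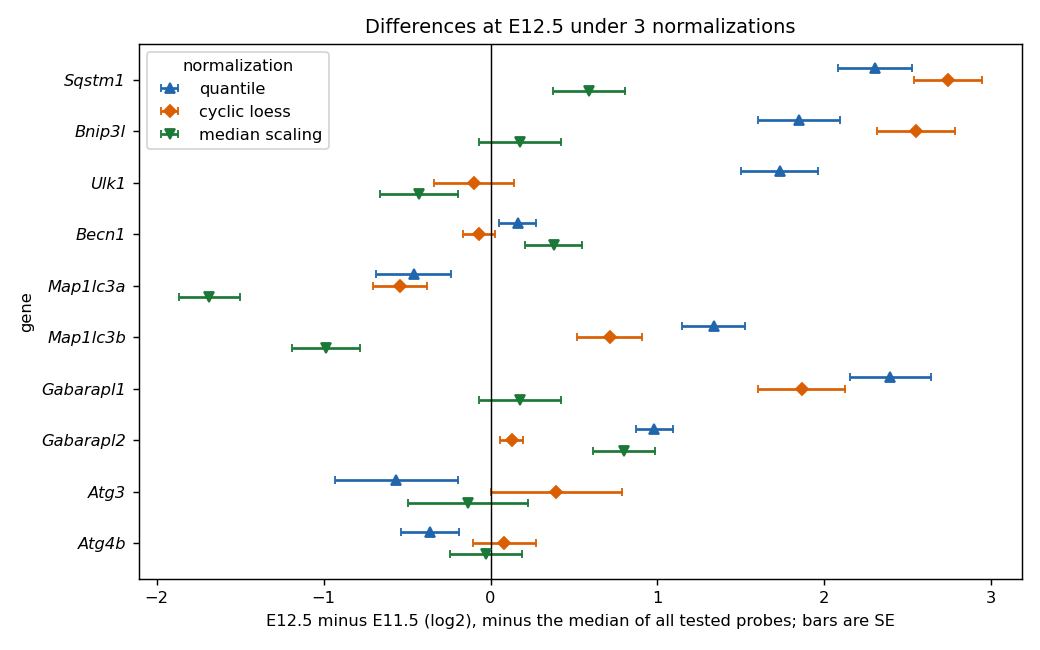
Differences in log2 level between E12.5 and E11.5 (x axis, less the median of all tested probes, bars are SE) of the 10 genes (y axis) under quantile normalization, cyclic loess and median scaling. Sqstm1, Bnip3l, Gabarapl1 and Gabarapl2 lie right of 0 in all 3, and Ulk1 does so under quantile normalization alone.

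The steps from day to day before E12.5 called few members, but over several days more were called. At E11.5 against E8.5, a comparison added after the values were seen, 5 of 11 probes were higher, where 18.8% of all were, and 1 lower, where 23% were. The increases were 1.25 in Sqstm1 (adjusted p = 1.05e-05), 0.84 in Map1lc3b (adjusted p = 0.000188), 0.83 in Bnip3l (adjusted p = 0.00294), 0.82 in Ulk1 (adjusted p = 0.002) and 0.53 in the brighter Map1lc3a probe (adjusted p = 0.0298). Gabarapl1 was lower, at -0.70 (adjusted p = 0.00993), and these stages lie on different slides. At E9.5 against E8.5, Gabarapl1 fell, 1 of 11 probes where 16.6% of all were called, 8.99% lower. Its fall was 0.87 ± 0.21 on the log2 scale (adjusted p = 0.00548). Within slide 2, which holds both stages, the difference was -0.49 (adjusted p = 0.0871, where 13.8% of all probes were called), and without E9.5 replicate 2 it was -0.76 (adjusted p = 0.0546). At E10.5 against E9.5 limma called 0 of 11 probes, where 1.7% of all were called. Both receptors had an unadjusted p under 0.05 there, 2 of 10 genes, where 13.02% of all probes had one, with Sqstm1 at 0.72 (adjusted p = 0.108) and Bnip3l at 0.63 (adjusted p = 0.25). At E11.5 against E10.5, on 1 slide, Sqstm1 and Ulk1 rose, 2 of 11 probes where 5.09% of all rose and 5.43% fell.

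On the arrays with 2 rounds of amplification Bnip3l rose, 1 of 11 probes at E8.5 against E7.5, where 12.1% were called, 6.04% higher. Its log2 level was 10.65, 10.29 and 10.12 at E8.5, against 9.84, 9.38 and 9.28 at E7.5, and the groups do not overlap. The rise was 0.85 ± 0.22, or 1.81-fold (adjusted p = 0.0479), close to the threshold, and it lost the call in 5 of 6 fits that left out 1 array (adjusted p = 0.0629 to 0.192). Gabarapl1 was at 9.16, 9.75 and 9.55 at E8.5, against 9.23, 8.62 and 8.01 at E7.5, which overlap (0.86 ± 0.33, adjusted p = 0.152). Atg3 was at 7.05 ± 0.55 at E8.5, against 6.36 ± 0.22 at E7.5 (SD, n = 3 each), with a difference of 0.69 (adjusted p = 0.238). Differences of the other genes ran from -0.35 in Atg4b to 0.45 in Ulk1. Replicate 2 of E7.5 was intermediate between the other two arrays of its stage for 8 of 11 member probes, and for 99.7% of the 355 tested probes over 4-fold apart between those arrays. Without that array the Bnip3l difference was 0.79. The mean log2 level of the erythroid markers was 11.10 to 11.58 at E8.5, against 7.91 to 9.65 at E7.5, and that of the visceral endoderm markers 6.54 to 7.82 at E8.5, against 4.93 to 5.78 at E7.5. Their part in the Bnip3l difference was not tested.

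**Figure D4:**
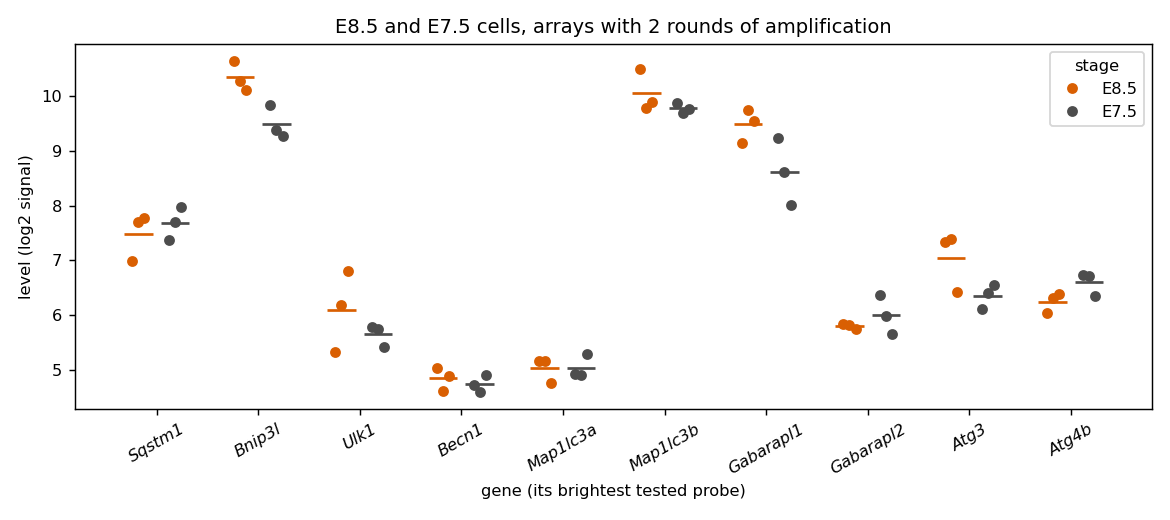
Normalized log2 signal (y axis) of each gene's brightest tested probe (x axis) on the arrays with 2 rounds of amplification, E8.5 left and E7.5 right. Points are arrays and lines are means of 3. The groups of Bnip3l do not overlap.

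Of 64 other listed genes of the pathway, 57 have a probe and 46 were tested with 1 round. At E12.5 against E8.5, 18 of 46 rose and 14 fell, where 34% of named genes rose and 37.9% fell, and their median difference was 0.11. At E12.5 against E11.5, 16 rose and 7 fell, where 26.6% and 23.6% did, with a median of 0.12. At E11.5 against E10.5, 2 rose and 2 fell, where 4.21% and 7.15% of named genes did. At E9.5 against E8.5, 3 rose and 4 fell, where 7.26% and 11.6% did. At E8.5 against E7.5, 7 of 44 rose and 3 fell, where 5.63% and 7.39% did, Gabarap among those that rose (1.12 ± 0.27, adjusted p = 0.0404).

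Among the other conjugation genes 3 of 6 rose and 1 fell against E8.5. Gabarap, the founding member of its family, rose by 3.03 ± 0.18 (adjusted p = 1.32e-12), and Atg12, a ubiquitin-like protein of the second conjugation system, by 1.77 ± 0.17 (adjusted p = 3.86e-09). Atg10, the enzyme that conjugates Atg12, was at least 1.61-fold lower (adjusted p = 1.05e-05).

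Among the other genes listed with the receptors 5 of 9 rose and 2 fell against E8.5. Pink1, a kinase that marks damaged mitochondria rather than a receptor, rose by 2.47 ± 0.16 (adjusted p = 1.12e-11). Nbr1, a ubiquitin-binding receptor like p62, rose by 1.37 ± 0.15 (adjusted p = 3.02e-08). Phb2, a protein of the inner mitochondrial membrane, was detected on 6 of 6 arrays at E8.5 and on 0 of 3 at E12.5, at least 8.03-fold lower (adjusted p = 6.87e-10). Bnip3, the close relative of Bnip3l, did not pass the filter on dim probes.

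Of the other initiation genes 1 of 8 rose and 4 fell. Atg14, a subunit of the Beclin 1 complex, rose by 1.61 ± 0.15 (adjusted p = 3.82e-09), and Uvrag, which replaces it in another form of the complex, was at least 2.21-fold lower (adjusted p = 2.59e-09). Of 8 membrane genes 3 rose, among them Wdr45, a phosphoinositide-binding protein (1.88 ± 0.16, adjusted p = 1.26e-09), and 2 fell. Of 15 genes of fusion and lysosome 6 rose, among them the transcription factor Tfe3 (2.32 ± 0.17, adjusted p = 7.13e-11) and the proton pump subunit Atp6v0d1 (1.79 ± 0.16, adjusted p = 1.31e-09), and 5 fell. Those that fell were Stx17, Vamp8, Rab7, Mitf and Atp6v1a, another subunit of that pump.

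The named probes most like each member over the 18 arrays with 1 round share the arrays and the step at E12.5, and their correlations are given as a description. Sqstm1 was most like Ube2o (Pearson r = 0.989) and Fam104a (0.988), Bnip3l like Adipor1 (0.979) and 1700037H04Rik (0.971), and Ulk1 like Sertad3 (0.979) and Dyrk3 (0.976). Map1lc3b was most like Ikbkg (0.986) and Fam214b (0.984), and Gabarapl1 like Phf23 (0.968) and Slc45a1 (0.966). The highest r of Becn1, Map1lc3a and Atg4b was lower, at 0.826, 0.850 and 0.803, and that of Atg3, with Snx19, was 0.938. Gabarapl2 was most like Oprl1 (0.983) and Olfr792 (0.982), an olfactory receptor.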

How the data were processed

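Illumina bead arrays of 24 samples were used, 1 sample per array. The deposited intensity per probe and array is called non-normalized in the file headers, but the arrays of slides 2 and 4 share 1 distribution (quantiles within 0.642% and 0.404%), as after normalization. Quantiles of the arrays of slide 1 differed by up to 24.6%. On slide 3, which holds E12.5 and the other E8.5 arrays, they differed by up to 229.8%. The step between E12.5 and E11.5 thus sets slide 3 against slide 4, and the effect of this was not tested. The scanner settings are not given in the sources used here. Each intensity has a detection p-value, deposited beside it. Processed values that the authors deposited too, read here as log2 from their range with no transform stated, were an alternative.

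Signals were background-corrected from the detection p-values, given an offset of 16, quantile-normalized and put on a log2 scale (neqc, limma 3.58.1, R 4.3.3), separately for 18 arrays with 1 round and 6 with 2. Of the probes, 29490 carry 1 symbol, 8 several and 16221 none. Fits over 17408 and 13941 probes used eBayes with an intensity trend, and the scripts were tested on simulated data. The number of arrays limits the precision. The p-values measure the spread between these samples, which may be technical in part.

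The members and lists were chosen with earlier results of these data known. Every member probe is named. Values of other pathway genes are given for at most 3 per role and comparison, those of smallest p among the called. The descriptions of E8.5 replicates 4 to 6 repeat the numbers 1 to 3, and deviations of arrays with 1 number correlated at -0.255, -0.0175 and -0.144. E9.5 replicate 1 is described as replicate 2, and these arrays correlated at 0.987. Both were used as separate samples, by their titles. Alternatives were the offset, normalization, the authors' values, the filter, a block for slide or for replicate number, fits within 1 slide, E8.5 arrays averaged by description, only the groups compared and leaving out each array.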

Additional observations from a re-analysis of the deposited data

How the results depend on the processing

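Sqstm1, Bnip3l, Map1lc3b and Gabarapl1 were called higher at E12.5 under all 17 alternatives against E11.5 and all 23 against E8.5, median scaling among them. Their differences ran from 2.08 to 2.79, 1.63 to 2.55, 0.71 to 1.38 and 1.86 to 2.53 against E11.5. Against E8.5 they ran from 3.16 to 4.06, 2.30 to 3.41, 1.66 to 2.29 and 1.20 to 2.04. Median scaling moved the median of all probes by 2.20 between E12.5 and E11.5 and by 1.96 between E12.5 and E8.5, and that shift by construction brought some differences above 0. Against E11.5 these were the brighter Map1lc3a probe (0.52), the dimmer (1.68), Atg3 (2.07) and Atg4b (2.18), which less that median stayed below 0 (-1.68, -0.52, -0.13 and -0.025). Against E8.5 they were the dimmer Map1lc3a probe (1.80), Atg3 (1.48) and Atg4b (1.82), which less the median stood at -0.16, -0.48 and -0.14. The calls of Sqstm1, Bnip3l, Map1lc3b and Gabarapl1 under median scaling carry the same shift and support nothing by themselves. Less the median, Map1lc3b stood below 0 in both comparisons and Gabarapl1 below 0 against E8.5. Cyclic loess turned Ulk1 to -0.10 against E11.5 and Atg3 to 0.018 against E8.5, and the cause was not tested.

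The main moves in the counts of called member probes were as follows. The calls over all tested probes moved as well, and stand in brackets as higher and lower. They are of 17408 probes with 1 round and 13941 with 2 unless stated. For E12.5 against E11.5, 7 (4106 and 4083) became 11 (14293 and 875) under median scaling. It became 5 (1604 and 1912) under cyclic loess and 6 (3016 and 2566) with slide as a random block. For E12.5 against E8.5, 8 (5604 and 6118) became 11 (13889 and 1885) under median scaling. It became 5 (2101 and 2673) under cyclic loess and 6 (4909 and 5308 of 16020) with slide as a fixed block. For E11.5 against E10.5, 2 (886 and 945) became 4 under cyclic loess (1668 and 1290). It became 4 too with only the groups compared (2027 and 2584 of 14091). It became 1 with an offset of 50 (962 and 866) and with the authors' values (902 and 906). With no filter it became 0 (556 and 560 of 45719). For E10.5 against E9.5, 0 (189 and 107) became 1 (422 and 321) under cyclic loess. With only the groups compared it became 2 (556 and 369 of 14224). For E9.5 against E8.5, 1 (1318 and 1565) became 2 (1208 and 4055) under median scaling. It became 0 with slide as a fixed block (792 and 836 of 16020) and within slide 2 (938 and 1059 of 14454). For E8.5 against E7.5, 1 (842 and 841) became 0 with the authors' values (733 and 775) and with no filter (434 and 452 of 45719). Leaving out 1 array gave 6 to 7, 6 to 8, 0 to 1, 0 to 1, 0 to 1 and 0 to 1 in that order. For E11.5 against E10.5 such fits called 328 to 624 of all probes higher and 329 to 643 lower. The split of all calls moved too: 94.2% were higher under median scaling against 50.1% in the reported fit for E12.5 against E11.5, and 88.1% against 47.8% for E12.5 against E8.5.

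Replicate numbers did not pair the samples: deviations of arrays of the same number correlated at -0.14 to 0.15. With the replicate block, counts were 9 for E12.5 against E11.5, 8 for E12.5 against E8.5, 3 for E11.5 against E10.5, 2 for E10.5 against E9.5, 0 for E9.5 against E8.5 and 1 for E8.5 against E7.5. Members near background, Becn1, Gabarapl2, Atg3 and Atg4b, are limited by signal, most of all at E12.5.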
